A study of Homo sapiens with 6 samples.

Results

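ATF4 is the transcription factor of the integrated stress response. The 10 genes described here are ATF4 itself and 9 genes known as its targets or close partners: the regulators DDIT3 and TRIB3, the stress effectors CHAC1, SESN2 and DDIT4, and the enzymes ASNS, PHGDH, PSAT1 and MTHFD2. They were picked by name from 60709 genes with a value, and all 10 were present in the table. mRNA was sequenced from SH-SY5Y, a human neuroblastoma cell line long established in culture, so every well held the same line. The labels list 3 control wells, which received 10 uL of DMSO, and 3 wells that received an Nrf2-peptide-linked fumarate (200 uL of a solution of 2 mg in 600 uL of water) along with the same 10 uL of DMSO. For the control wells the labels give no matching volume of water. All wells held 2 mL of medium at up to 80% confluence, and cells were lysed after 5 h.

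Only columns numbered 4, 5 and 6, the numbers of the control samples, could be tied to a label, so the values below describe control replicates 1, 2 and 3 and no comparison between treatments is made. The samples given the peptide were not used here. The word control rests on that match of numbers. Should the columns have been renumbered on deposit, the values could belong to treated cells. The labels do not say whether the wells came from separate cultures, so the spread between replicates may be technical.

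As background, several kinases phosphorylate the translation factor eIF2 under different stresses: EIF2AK3 (PERK) responds to unfolded protein in the endoplasmic reticulum, EIF2AK4 (GCN2) to amino acid shortage, EIF2AK2 (PKR) to double-stranded RNA and EIF2AK1 (HRI) to heme shortage and mitochondrial stress. General translation then slows while ATF4 mRNA is translated more, so the level of ATF4 mRNA is not the level of its protein. ATF4 protein binds C/EBP-ATF response elements in genes for amino acid uptake and synthesis. PHGDH, PSAT1 and PSPH make serine from a glycolytic intermediate, and the mitochondrial enzymes SHMT2 and MTHFD2 pass its carbon into folate metabolism.

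The core letters of the C/EBP-ATF response element, TGATGNAAN, were searched on both strands in windows of 300 bases, from 250 before to 50 after each RefSeq start site (GRCh38.p14). They were found for 2 of the 10 genes, ASNS and CHAC1, and for 4.45% of all 27305 genes with a window. Of all 35116 windows, several for some genes, 3.61% held them. The stretches are shown because they are the only such letters in the windows of the 10 genes, with the match in capitals and the sequence read along the gene's strand.
ASNS, chr7:97872458-97872486, minus strand: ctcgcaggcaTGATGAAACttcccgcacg
CHAC1, chr15:40953251-40953279, plus strand: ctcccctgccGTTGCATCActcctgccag

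The ASNS match lay 68 to 60 bases before the start and read TGATGAAAC along the gene. The CHAC1 match lay 210 to 202 bases before the start and read TGATGCAAC on the opposite strand. Both genes have transcripts in GENCODE 29 that begin further upstream. The other 8 genes had no match in these windows, which says nothing of sites outside them. No binding was measured. Among 21 of 26 further ATF4 target genes with a window, 7 held the letters: SLC3A2, SLC7A1, SLC1A4, SLC1A5, FGF21, CARS1 and NARS1. In the other lists of pathway genes, counted over genes with a window, they were held by 3 of 10 bZIP partners and stress-induced factors, 1 of 16 serine, glycine and folate genes, 1 of 13 genes of eIF2 control, 1 of 13 mTORC1 partners and 1 of 11 relatives of the 10 genes. No test was made on these lists.

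The libraries held 10683037, 11397407 and 8887854 counts. The cells expressed 15 of 16 markers of noradrenergic neuroblastoma at 10 or more counts in every library. Among these HAND2, a transcription factor of sympathetic neurons, had 944 ± 72.3 TPM (SD, n = 3) and DBH, which makes noradrenaline, 608 ± 84.1 TPM. STMN2, a neuronal growth protein, had 666 ± 25.0 TPM. TH, the enzyme that makes L-DOPA, was at 0 counts throughout, and in the smallest library a 0 leaves room for up to 0.338 counts per 1000000 (CPM). Of 16 markers of blood, liver, epithelium, endothelium, fibroblasts and glia, 11 fell under 10 counts in some library. CDH5 had 0 counts in each and PECAM1 had 0, 1 and 0. The summed level of the 16 markers was 24.4 to 27.5 CPM, led by the fibroblast genes COL1A1 with 14.4 ± 0.974 CPM and DCN with 5.21 ± 0.235 CPM and by CD14 with 1.92 ± 0.385 CPM. Replicate 3 stood apart: 6.25% of its counts came from mitochondrially encoded genes, against 4.11% and 3.83%, and transcripts near 60% GC were lower in it, with a median log2 deviation of -0.12 from the mean of the libraries.

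Levels between genes are given in TPM, transcripts per 1000000, which divides counts by the length of the longest annotated transcript, coding or not. For PHGDH this was 3180 bases, against 2585 for its longest coding transcript. The lengths were likewise 3416 against 2537 bases for SHMT2 and 3181 against 2354 for MTHFD2L. PHGDH and ATF4 were the most abundant of the 10 genes, in the 95.9th and 93.6th percentile of the 13920 genes that reached 10 counts in all libraries. ASNS and CHAC1 were the least abundant, in the 16.9th and 16.4th percentile. The mean level of PHGDH was 48.9 times that of CHAC1. All 10 genes reached 10 counts in every library, and 8 of them exceeded the median level of such genes, 24.0 TPM.

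**Figure D1:**
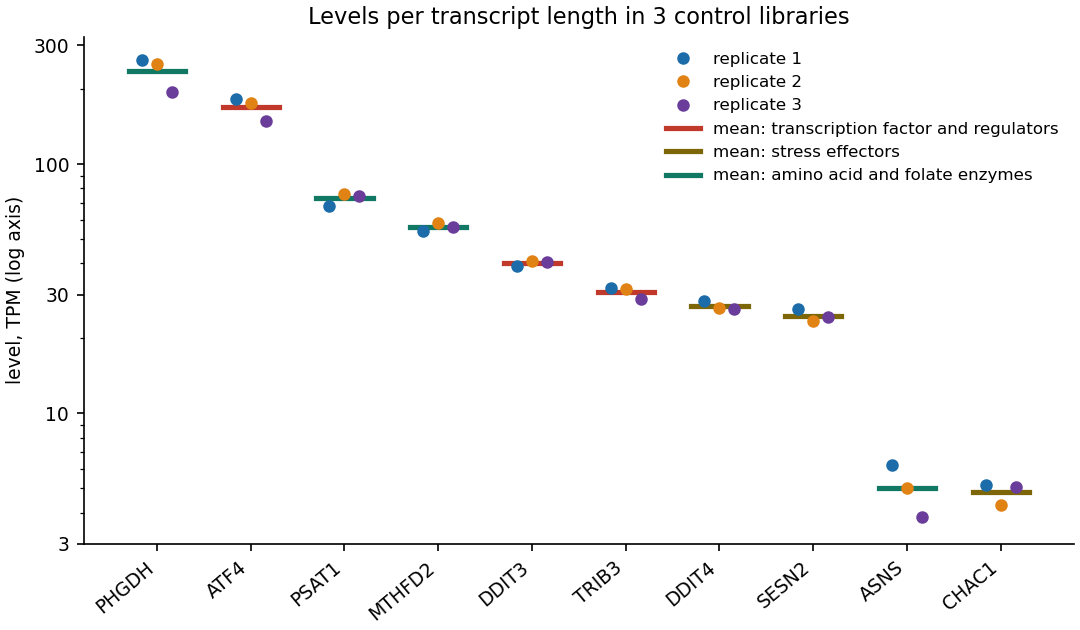
Level of each gene in TPM (vertical log axis) in control replicates 1 to 3 (points), with the mean as a bar coloured by role. The range runs from 237 TPM for PHGDH to 4.84 TPM for CHAC1, and replicate 3 is the lowest point for PHGDH, ATF4, TRIB3, DDIT4 and ASNS.

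The genes are described by role, beginning with the transcription factor and its regulators, which is not an order of level. Identifiers and their versions are those of the deposited counts, and coordinates are those of GENCODE 29 on GRCh38. ATF4 (ENSG00000128272.16, chr22:39519695-39522685, plus strand) was measured at 183, 176 and 149 TPM in replicates 1, 2 and 3, a mean of 170 ± 17.9 TPM (SD, n = 3). Replicate 3 was the low one. The counts behind these values were 1362, 1389 and 964.

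DDIT3 (ENSG00000175197.12, chr12:57516588-57521737, minus strand) encodes CHOP, a bZIP factor linked to cell death under prolonged stress. It was measured at 39.0, 41.1 and 40.5 TPM, a mean of 40.2 ± 1.08 TPM, from 153, 171 and 138 counts. The 3 libraries lay within their counting error. The ratio of DDIT3 to ATF4 was 0.213, 0.233 and 0.271, so ATF4 was 4.23 ± 0.509 times the level of DDIT3. In GENCODE 29, 33.2% of the longest DDIT3 coding transcript lies opposite exons of other genes, among them MARS, a methionyl-tRNA synthetase gene with 2443 to 3326 counts. Whether the counting used strand is not given in the sources used here.

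TRIB3 (ENSG00000101255.11, chr20:362835-397559, plus strand) encodes a pseudokinase that restrains ATF4 and CHOP. It was measured at 31.7, 31.6 and 28.7 TPM, a mean of 30.7 ± 1.73 TPM. Its level was 0.181 ± 0.00956 of that of ATF4, or 0.330 ± 0.0174 with median transcript lengths. Its relative TRIB2 was far higher, 206 ± 6.83 TPM, and TRIB1 far lower, 4.06 ± 1.09 TPM. The ranges of the 3 relatives did not overlap.

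Among the stress effectors, DDIT4 and SESN2 were close in level. DDIT4 (ENSG00000168209.6, chr10:72273920-72276036, plus strand) encodes REDD1, which acts through the TSC complex to inhibit mTORC1. It was measured at 28.3, 26.5 and 26.1 TPM, a mean of 27.0 ± 1.15 TPM. Its relative DDIT4L had 3, 4 and 4 counts, near the limit of what this depth can show. An antisense gene, DDIT4-AS1, lies opposite 48.5% of the DDIT4 transcript in GENCODE 29 and was not analysed here.

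SESN2 (ENSG00000130766.5, chr1:28259527-28282491, plus strand) encodes Sestrin2, a leucine sensor that restrains mTORC1 through the GATOR complexes. It was measured at 26.3, 23.5 and 24.4 TPM, a mean of 24.7 ± 1.44 TPM. Its relatives SESN1, with 23.1 ± 2.29 TPM, and SESN3, with 26.3 ± 2.11 TPM, had ranges that overlapped with it. The ratio of SESN2 to SESN1 was 1.20, 1.08 and 0.946, and that of SESN2 to SESN3 was 1.07, 0.906 and 0.851. At these lengths, and before removal of the GC trend described below, SESN2 lay neither above nor below the other sestrins in every library. With that trend removed the mean ratio was 1.08 ± 0.0334 to SESN1 and 0.944 ± 0.0778 to SESN3. The comparison depended on length: with median transcript lengths SESN2 was 0.282 ± 0.0333 of SESN1 and 0.110 ± 0.0135 of SESN3, and with merged exon lengths it was 1.57 ± 0.185 times SESN1 and 1.04 ± 0.128 times SESN3.

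CHAC1 (ENSG00000128965.13, chr15:40952962-40956519, plus strand) encodes an enzyme that breaks down glutathione. It was measured at 5.14, 4.29 and 5.08 TPM, a mean of 4.84 ± 0.471 TPM, from 35, 31 and 30 counts. Counting error alone was 16.9 to 18.3% per library, more than the 11.6% spread between libraries in CPM. Its relative CHAC2 was higher in every library, at 7.82, 8.92 and 11.6 TPM, from 38, 46 and 49 counts. Before division by length both genes were close in replicate 1, at 3.27 CPM for CHAC1 and 3.55 CPM for CHAC2.

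Among the serine enzymes PHGDH had the highest level at the longest transcript lengths, and the comparison depended on the length used. PHGDH (ENSG00000092621.13, chr1:119648411-119744226, plus strand), which catalyses the entry step of serine synthesis, was measured at 263, 252 and 195 TPM, a mean of 237 ± 36.8 TPM, from 3078, 3132 and 1978 counts. PSAT1 (ENSG00000135069.14, chr9:78297143-78330093, plus strand), the aminotransferase of the next step, was measured at 68.3, 76.1 and 74.5 TPM, a mean of 73.0 ± 4.13 TPM. PSPH, the phosphatase of the last step, had 47.5 ± 0.223 TPM. The ratio of PSAT1 to PHGDH went from 0.260 in replicate 1 and 0.302 in replicate 2 to 0.383 in replicate 3, where PHGDH was low and PSAT1 was not. Its mean, 0.315 ± 0.0626, became 0.124 ± 0.0247 with median transcript lengths and 0.912 ± 0.181 with merged exon lengths. At the longest transcript lengths with the GC trend described below removed, this ratio was 0.311 ± 0.0361, a smaller spread. At merged exon lengths PHGDH had 110 ± 18.5 TPM and PSAT1 98.1 ± 5.5 TPM, which were not clearly apart. PSPH was 0.204 ± 0.0336 of PHGDH, and 0.467 ± 0.0768 with merged exon lengths.

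MTHFD2 (ENSG00000065911.13, chr2:74198562-74217565, plus strand), the mitochondrial methylene-tetrahydrofolate dehydrogenase and cyclohydrolase, was measured at 53.9, 58.4 and 55.8 TPM, a mean of 56.02 ± 2.24 TPM. It was 7.01 ± 0.701 times the level of MTHFD2L, its close relative, or 19.8 ± 1.98 times with merged exon lengths. Its cytosolic relative MTHFD1 had 36.6 ± 1.64 TPM. Before division by length MTHFD1 had 86.9 ± 6.11 CPM and MTHFD2 87.1 ± 3.86 CPM, so their difference in TPM comes from the lengths used. SHMT2, the mitochondrial enzyme that takes the carbon from serine, stood at 136 ± 13.5 TPM, 2.43 ± 0.252 times MTHFD2. Exons of other genes lie opposite 36.3% of the longest MTHFD2 coding transcript, and the 2 such genes, SLC4A5 and AC006030.1, had at most 14 counts in any library.

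**Figure D2:**
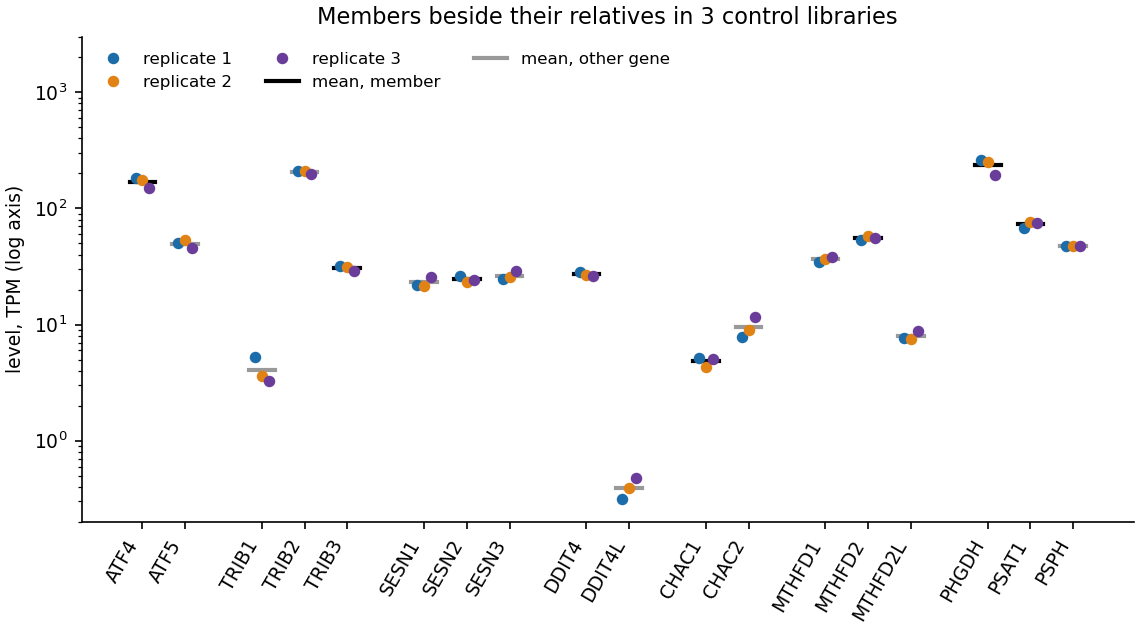
Level in TPM (vertical log axis) of members of 6 families and of the serine enzymes in control replicates 1 to 3 (points), with the mean as a black bar for the 10 genes and a grey bar for other genes. TRIB2 lies above TRIB3, the 3 sestrins overlap, and DDIT4L lies near the detection limit with 3 to 4 counts.

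ASNS (ENSG00000070669.17, chr7:97852118-97872542, minus strand), which makes asparagine, had few reads: 54, 46 and 29 counts, or 6.23, 5.00 and 3.85 TPM. The mean was 5.03 ± 1.19 TPM. Replicate 1 was the highest and replicate 3 the lowest. At the longest transcript lengths ASNSD1, a gene with an asparagine synthetase domain, was higher in every library at 25.0 ± 4.83 TPM.

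This low value comes with an overlap in the annotation. In GENCODE 29, exons of AC079781.5 (chr7:97851688-97972985, same strand) cover 84.3% of the longest ASNS coding transcript, leaving 371 bases of its own. Of 13 protein-coding ASNS transcripts, 8 lie more than 80% inside those exons. AC079781.5 itself had 29, 24 and 24 counts, and the pseudogene ASNSP1 had 19, 27 and 16. Taken over the 371 bases alone, the ASNS counts correspond to 31.9 ± 7.55 TPM. By library this was 39.54, 31.77 and 24.45 TPM, against 19.41, 28.23 and 27.2 TPM for ASNSD1. The value holds only if reads shared by both genes were left out and all ASNS reads came from the longest transcript. It also takes the overlap from GENCODE 29, which was not the release used for counting. No allowance was made for reads that run from the 371 bases into shared exons. Of the 13 coding transcripts, 2 lie fully inside the exons of AC079781.5 and have no bases of their own. The treatment of shared reads is not given in the sources used here, and the part of the overlap in the low count was not tested.

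**Figure D3:**
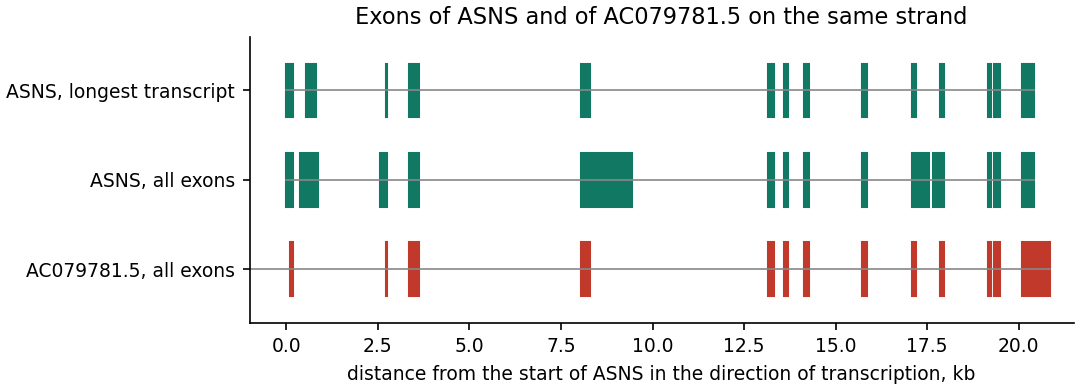
Exons (boxes) of the longest ASNS transcript, of all ASNS transcripts merged and of AC079781.5 in GENCODE 29, by distance in kb from the start of ASNS. AC079781.5, whose exons further upstream are not drawn, shares most ASNS exons, and 371 bases of the longest transcript lie outside it.

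Nuclear protein-coding genes were also sorted by how much of the longest coding transcript lies inside another gene on the same strand. With at least 75% inside, 107 of 578 genes, 18.5%, had 10 or more counts in every library. The share was 69.8% of 1864 genes with a smaller overlap and 63.8% of 17187 genes with none. The 578 include read-through genes themselves. Among the 141 genes of all lists, 5 had an overlap of that size: ASNS, SLC25A32, AMT, CASTOR1 and CD68. ASNS, with 4.12 CPM, was the highest of them and the only one with 10 counts in every library, against 119 of the other 136. These tallies were made after the ASNS value was seen and are no test of what set it. Of the pseudogenes named after ATF4, PSAT1, MTHFD2 or ASNS, ASNSP1 was the only one with more than 1 count in any library.

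In the order by level, PHGDH was followed by ATF4, PSAT1, MTHFD2, DDIT3, TRIB3, DDIT4, SESN2, ASNS and CHAC1. The ranges over 3 libraries did not overlap for 7 of the 9 neighbouring pairs. DDIT4 and SESN2 overlapped, as did ASNS and CHAC1. The value of 31.9 TPM for ASNS over its own 371 bases would place it higher in this order. The top of the order depended on the length used. With the merged length of all exons, which for PHGDH is 9217 bases against 3180 for its longest transcript, ATF4 was first at 183 TPM and PHGDH fell to 110 TPM. With the median transcript length PHGDH was again first, at 247 TPM, MTHFD2 was next at 67.2 TPM and ATF4 was at 61.0 TPM. That length also brought PSAT1 to 30.2 TPM, TRIB3 to 20.0 TPM, DDIT3 to 15.8 TPM and SESN2 to 8.41 TPM.

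How steady each gene was between libraries is given in CPM, counts per 1000000, which needs no length. PHGDH was measured at 288, 274 and 223 CPM and ASNS at 5.05, 4.03 and 3.27 CPM, and these were the 2 of the 10 genes whose highest library was at least 25% above the lowest, at 1.29 and 1.54 times. Of all 13920 genes, 33.6% differed by that much, so the count over the 10 genes is no result about them. CHAC1 lay just short of that limit at 1.249 times. The coefficient of variation had a median of 6.58% over the 10 genes and 8.69% over all genes. It was lowest for TRIB3, at 2.82%, where counting alone gives 5.70 to 6.61% per library.

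The index of dispersion compares the spread of the counts with counting error, and its 95% point for counting alone is 5.99 with 3 libraries. It exceeded this for PHGDH, at 86.3, and ATF4, at 15.2, 2 of 10 against 36.8% of all genes. For ASNS the index was 3.81, so its larger fold range was not detectable beyond counting error at this depth. These values compare libraries, not conditions. Without replicate 3 the number of the 10 genes past the index was 0, against 14.8% of all genes.

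**Figure D4:**
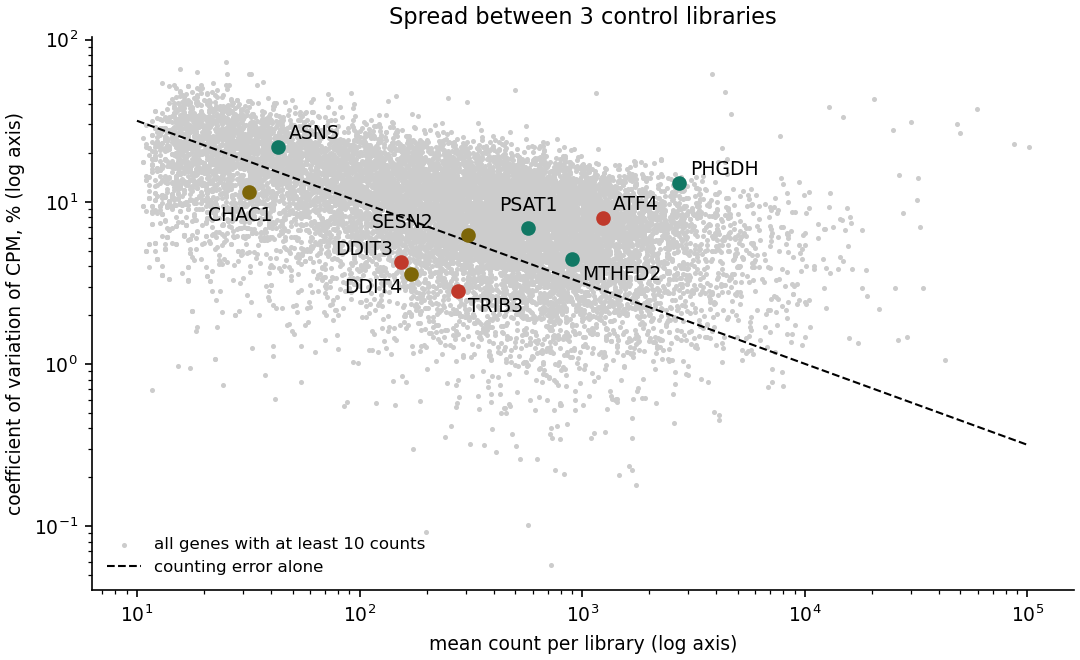
Coefficient of variation of CPM over 3 control libraries (vertical log axis, %) against the mean count per library (horizontal log axis), with all 13920 genes in grey, the 10 genes coloured by role and the counting error as a dashed line. PHGDH, at 13.0%, lies far above the line, while TRIB3, DDIT4, DDIT3 and CHAC1 lie below it.

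Replicate 3 differed from the others by GC content, and the 10 genes span 41.4% GC (MTHFD2) to 62.6% (CHAC1). PHGDH, with 52.3% GC, differed in replicate 3 from the mean of replicates 1 and 2 by -0.33 on the log2 scale, and by -0.24 once the GC trend was removed. ATF4 differed by -0.19, and by -0.04 after removal, with CPM of 121, 119 and 117 in replicates 1 to 3. Its index of dispersion went from 15.2 to 0.805, under the limit, while that of PHGDH went from 86.3 to 43.3 and stayed past it. The index rose for DDIT3, TRIB3, CHAC1, DDIT4 and SESN2, the highest of these being SESN2 at 5.42, under the limit. The coefficient of variation fell for 5 of the 10 genes, and its median went from 6.58% to 6.72%.

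The 4 genes richest in GC, CHAC1, TRIB3, SESN2 and DDIT4, had higher values in replicate 3 once the trend was removed. Their differences in replicate 3 went from 0.19 to 0.39 for CHAC1, from -0.07 to 0.14 for TRIB3, from 0.05 to 0.21 for SESN2 and from 0.01 to 0.17 for DDIT4. PSAT1 went from 0.12 to 0.02. With the trend removed, ASNS and CHAC1 were the 2 genes past the 25% limit, at 1.54 and 1.41 times, against 23.9% of all genes, and PHGDH was at 1.20 times. The part of the larger mitochondrial share of replicate 3 in these values was not tested.

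**Figure D5:**
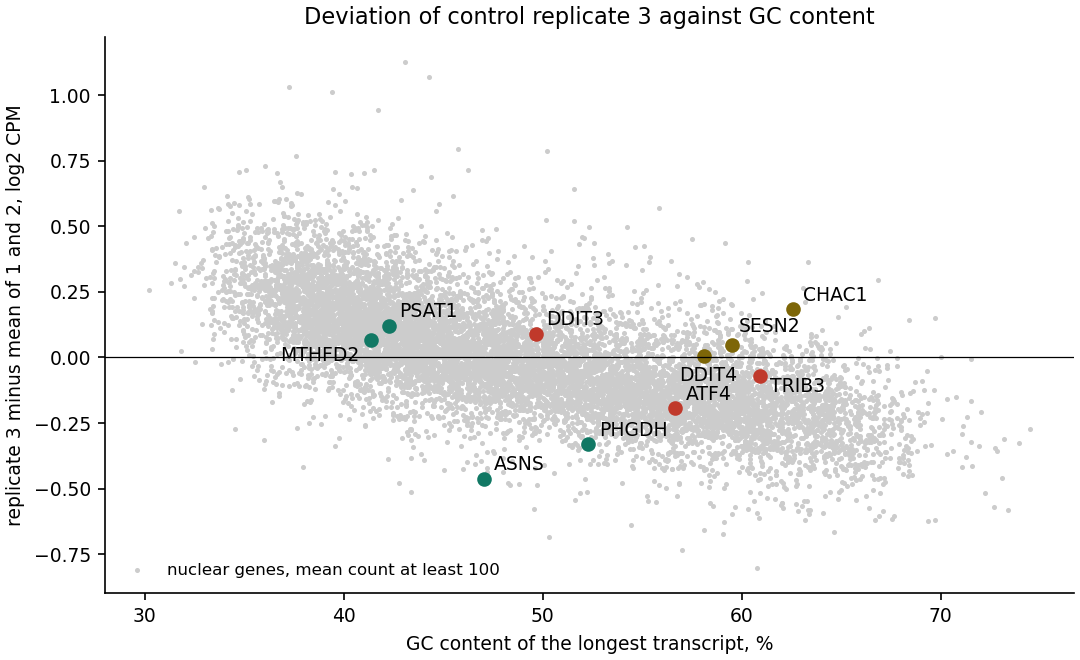
Difference of replicate 3 from the mean of replicates 1 and 2 in log2 CPM (vertical axis) against GC content of the longest transcript (horizontal axis, %), with nuclear genes of at least 100 counts on average in grey and the 10 genes coloured by role. PHGDH (-0.33) and ASNS (-0.46) lie low among genes of like GC and ATF4 (-0.19) lies amid them, while ASNS and CHAC1 have fewer counts than the grey genes.

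Other genes of the pathway were taken from lists. The upstream list of eIF2 kinases, eIF2 subunits, phosphatase subunits and the exchange factor eIF2B had all 15 genes at 10 or more counts, with a median of 65.0 ± 2.56 TPM, against 23.9 ± 0.660 TPM over all genes of at least 10 counts and 35.4 ± 0.877 TPM over the 10 genes. The kinase EIF2AK1 was the most abundant of the 4 at 237 ± 4.17 TPM. EIF2AK4 had 51.9 ± 1.84 TPM, EIF2AK3 had 38.6 ± 0.294 TPM and EIF2AK2 had 32.3 ± 2.23 TPM, named here to complete the family. The order of these kinases depended on length. Before division by length EIF2AK2 had 113 ± 9.65 CPM, above EIF2AK4 at 99.6 ± 0.973 CPM and EIF2AK3 at 62.6 ± 2.35 CPM. PPP1R15B, the constitutive phosphatase subunit, had 91.5 ± 2.88 TPM, and EIF2S3, a subunit of eIF2, had 199 ± 10.1 TPM. IMPACT, an inhibitor of GCN2, was the lowest of the list at 19.3 ± 2.24 TPM, and EIF2B3 had 45.0 ± 2.22 TPM. The libraries differed by at least 25% for 1 of the 15, IMPACT, against 33.6% of all genes.

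Of 12 bZIP partners and stress-induced factors, 10 reached 10 counts. ATF5, the closest relative of ATF4, had 49.8 ± 4.16 TPM, so ATF4 was 3.41 ± 0.181 times as abundant, or 1.44 ± 0.0764 times with median transcript lengths. CEBPG, a dimer partner of ATF4, had 47.6 ± 1.06 TPM. XBP1 and MAFG, at 175 ± 15.4 and 124 ± 12.5 TPM, and ATF6, at 42.1 ± 1.05 TPM, had the most counts. NUPR1, a stress-induced chromatin protein, had 2, 0 and 1 counts, and BATF2 had 2, 1 and 1.

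Of 26 further ATF4 targets, 25 reached 10 counts and the median was 37.0 ± 3.39 TPM. The tRNA synthetases NARS1 and WARS1 had 262 ± 19.1 and 250 ± 24.2 TPM, and SLC38A2, an amino acid transporter, had 129 ± 19.5 TPM. CBS, of cysteine synthesis, had 3.09 ± 0.952 TPM. FGF21, a stress hormone, had 1, 0 and 0 counts. In 8 of the 25 the libraries differed by at least 25%, against 33.6% of all genes.

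Of 22 genes for serine, glycine and folate metabolism, 18 reached 10 counts and the median was 29.8 ± 0.782 TPM. MAT2A, which makes S-adenosylmethionine, was the most abundant at 257 ± 8.30 TPM, and MTR, methionine synthase, had 34.4 ± 2.09 TPM. SHMT2 was 0.579 ± 0.0377 of PHGDH, and with merged exon lengths the order turned, at 1.18 ± 0.0772. The remaining 4 were GCSH (8, 12 and 13 counts), GNMT (13, 14 and 5), AMT (6, 6 and 3) and the mitochondrial folate carrier SLC25A32 (1 in each library). The longest coding transcripts of AMT and SLC25A32 lie 99.9% and 88.1% inside other genes on their strand, that of GCSH 17.4% and that of GNMT 0%. The part of these overlaps in the low counts was not tested.

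Of 16 partners of SESN2 and DDIT4 in mTORC1 signalling, 15 reached 10 counts, with a median of 38.2 ± 3.33 TPM. TSC2, through which DDIT4 acts, had 93.8 ± 11.8 TPM. MTOR, the kinase of the complex, had 62.9 ± 5.10 TPM and RHEB, its activator, 161 ± 12.5 TPM. WDR24, a subunit of GATOR2, had 8.91 ± 2.14 TPM, and the arginine sensor CASTOR1 had 5, 14 and 6 counts. The further relative CREB1, of the same bZIP superfamily as ATF4, had 27.7 ± 3.46 TPM.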

How the data were processed

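The authors deposited raw counts per Ensembl gene as whole numbers, per the file headers and values. Per the submitters' processing notes, fastp 0.21.1, STAR 2.7.7a and featureCounts were used with GRCh38. The annotation release, strand setting and treatment of shared reads are not given in the sources used here. Per the labels' protocols, libraries came from total RNA with a stranded mRNA kit. Columns were assigned by the sample number in the labels, and 3 columns matching no sample were not used. The entry of ANK2 is broken and has no value.

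Counts were scaled to CPM with TMM factors (edgeR 4.0.16, R 4.3.3). TPM used the longest GENCODE 29 transcript, known for 58419 of 60709 genes. The rest held at most 0.0491% of counts. Some of them have no entry in GENCODE 29, so the counting used another release. The GC trend was the median log2 deviation in 50 bins of GC over 10290 nuclear genes that averaged 100 or more counts, interpolated. The index of dispersion is Pearson's chi-square of counts against library totals, with 2 degrees of freedom, and its limit is the 95% point. Both were tested on simulated data. Other steps ran in Python 3.11.15 (scipy 1.17.1, pandas 2.3.3, numpy 2.4.6). A count of 0 allows up to 3 counts, and counting errors cover counting alone. Promoter sequences are from RefSeq.

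The 10 genes, the lists and the tests were chosen with earlier results of these data known. The naming rule took the 10 genes, their relatives, every gene in a ratio, and in each other list the 3 genes with the highest and 2 with the lowest CPM and, where few, those under 10 counts. EIF2AK2, EIF2AK3 and EIF2AK4 and the genes singled out for overlaps or promoter letters fall outside it, and 1 marker that it takes is not reported here. Alternatives were RLE factors, library totals alone, the GC trend removed, mitochondrial genes left out, other lengths, other limits and each replicate left out.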

Additional observations from a re-analysis of the deposited data

How the results depend on the processing

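No paired analysis was possible because a single group, the controls, had columns that could be used. The count of the 10 genes past the 25% limit, 2 with all libraries, ranged from 0 to 2 with one replicate left out each time. It was 0 without replicate 1, 2 without replicate 2 and 1 without replicate 3, where 17.8%, 25.2% and 12.6% of all genes passed, against 33.6% with all libraries. At a limit of 1.5 times it was 1 (9.74% of all genes), and with RLE factors it was 3 (33.7% of all genes), since CHAC1 passed. The count past the index of dispersion, 2, ranged from 0 to 3 with a replicate left out. It was 2 without replicate 1, 3 without replicate 2 and 0 without replicate 3, where 28.2%, 37.5% and 14.8% of all genes passed, and 1 (PHGDH) with the GC trend removed, where 20.8% passed. The median of the 10 genes, 28.2 CPM, rose to 29.6 CPM without mitochondrial genes, a choice that raises every remaining gene by construction. With the forward strand alone, 1 of the 10 genes held the promoter letters, against 2.31% of all genes with a window. Stricter letters kept 2 of the 10, against 1.2% of all genes with a window.

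Gene length moved levels most. Of 21 TPM values of the 10 genes with another length, the added one for ASNS included, 18 moved by more than 1 SD, against 4 of 70 CPM values under the other alternatives. The ratio of SHMT2 to PHGDH turned from 0.579 to 1.18 with merged exon length. Of 78 ratio values, 18 others moved by more than 1 SD, among them SESN2 to SESN1, whose ranges overlap and whose ratio went from 1.08 to 0.282 with median transcript length. ASNS and CHAC1 rest on 29 to 54 counts per library, which limits their precision. The TMM-scaled index and the ASNS level over its own 371 bases were added after the data were seen.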
